A study of Mus musculus with 8 samples.

Results

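Trichohyalin and the peptidylarginine deiminases are a substrate and the enzymes that modify it, and 6 of their genes were followed by name: Tchh, Tchhl1, Padi1, Padi2, Padi3 and Padi4. All 6 were listed in both deposited tables, out of 32693 genes listed in at least 1 of them. RNA was sequenced from hair matrix keratinocytes, the dividing epithelial cells of the hair bulb, sorted from mouse skin at postnatal day 4.5. The groups were Tet2/Tet3 double knockout (DKO) with Krt14-Cre after 5-aza, wild type (WT) after 5-aza, DKO with Krt14-Cre untreated, and WT untreated, each with 2 libraries. Tet2 and Tet3 encode dioxygenases that oxidise 5-methylcytosine, and the keratin 14 promoter drives Cre in basal keratinocytes, so loss is limited to cells in which that promoter has been active. 5-aza inhibits DNA methyltransferases, and mice received 50 µg of it subcutaneously at postnatal day 2.5. Whether the libraries came from separate or pooled animals is not stated, so p-values measure only the spread between these libraries. After 5-aza, whether that spread is technical cannot be told, since libraries of a genotype were near in sex-linked RNA but uneven in melanocyte markers. The untreated libraries of a genotype differed in sex-linked RNA, as given below.

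Trichohyalin is a long, arginine-rich helical protein that gathers in granules in cells of the inner root sheath and the hair medulla. Peptidylarginine deiminases convert its arginines to citrulline, which removes positive charge and lets the protein spread over the keratin filaments, where transglutaminase 3 crosslinks it. In humans, variants of PADI3, TGM3 and TCHH cause uncombable hair syndrome. Padi1 and Padi3 encode the deiminases best known in epidermis and hair follicle, Padi4 a nuclear enzyme that citrullinates histones and is best known in neutrophils, and Padi2 an enzyme of many tissues such as brain and muscle. Tchhl1 encodes a trichohyalin-like protein of the same fused S100 family.

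Tet3 was 6.27 ± 0.386 FPKM in DKO and 10.9 ± 0.773 FPKM in WT after 5-aza, and 7.11 ± 0.279 FPKM in DKO and 11.6 ± 0.312 FPKM in WT untreated (SD, n = 2 each). Tet2 was 1.57 ± 0.0164 and 1.90 ± 0.130 FPKM in DKO and WT after 5-aza, and 2.63 ± 0.120 and 3.25 ± 0.0343 FPKM in DKO and WT untreated (SD, n = 2 each). Both are gene-level values and do not show the deleted part. Listed genes held 16744915 to 23512270 reads per library after 5-aza and 11825515 to 14132115 reads untreated. All 10 hair matrix markers on the list used here, among them Lef1, Msx2 and Hoxc13, were detected, with summed levels of 376 to 405 FPKM in DKO and 316 to 332 FPKM in WT after 5-aza, and of 429 to 481 FPKM in DKO and 284 to 371 FPKM in WT untreated. Krt14, a keratin of basal keratinocytes, is 1 of the 10 and weighs heavily in these sums. Untreated it was 175 and 209 FPKM in DKO and 71.9 and 84.7 FPKM in WT. Mki67 went the other way untreated, at 48.0 and 43.2 FPKM in DKO and 51.1 and 66.0 FPKM in WT. Of the 10, 8 had positive and 2 negative log2 differences in each table. Xist, the RNA of the inactive X chromosome, was 4.60 and 3.65 FPKM in the DKO libraries (replicates 1 and 2) and 16.9 and 23.1 FPKM in the WT libraries after 5-aza. Without treatment it was 74.4 and 1.19 FPKM in the DKO libraries and 82.1 and 0.327 FPKM in the WT libraries, so sex-linked RNA moved with genotype after 5-aza and with replicate number without it. Ddx3y, a gene of the Y chromosome, was 2.08 and 2.00 FPKM in DKO and 1.24 and 0.917 FPKM in WT after 5-aza. Untreated it was 0.0755 and 2.90 FPKM in DKO and 0.0155 and 3.50 FPKM in WT. The untreated libraries of a genotype were thus not repeats of the same RNA. Each library after 5-aza held both Xist and Ddx3y.

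Tchh (ENSMUSG00000052415) lies on the plus strand of chromosome 3, from 93442330 to 93449077 in GRCm38, with 2 exons in GENCODE M21. Tchhl1 (ENSMUSG00000027908) follows on the same strand, from 93468754 to 93471980, with 3 exons. The deiminase genes stand in 1 cluster on chromosome 4: Padi4 (ENSMUSG00000025330) from 140745865 to 140774236, Padi3 (ENSMUSG00000025328) from 140785365 to 140810648 and Padi1 (ENSMUSG00000025329) from 140812983 to 140845778, all on the minus strand, and Padi2 (ENSMUSG00000028927) from 140906344 to 140952586 on the plus strand. All are annotated as protein-coding. No exon of Tchh, Tchhl1, Padi3 or Padi4 overlaps an exon of another annotated gene. Padi1 shares 1200 exon bases with Gm13032 and Padi2 shares 149 with Gm13031, both on the opposite strand, and since the strand setting of the counting is not stated, their reads cannot be told apart.

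The promoters of Tchh, Padi3 and Padi4 are shown because the DKO and WT libraries of these 3 genes were apart in at least 1 table. Padi3 and Padi4 passed the adjusted threshold in neither table. A further reason is that both the genotype and the drug act on methylation of cytosine, which in mammals falls mostly on CG. Each window runs from 250 bases before to 50 bases after the RefSeq start, 5′ to 3′ along the gene, with every CG in capitals (GRCm38.p6; chr3:93442080-93442379 plus strand, chr4:140810599-140810898 minus strand and chr4:140774154-140774453 minus strand).
Tchh: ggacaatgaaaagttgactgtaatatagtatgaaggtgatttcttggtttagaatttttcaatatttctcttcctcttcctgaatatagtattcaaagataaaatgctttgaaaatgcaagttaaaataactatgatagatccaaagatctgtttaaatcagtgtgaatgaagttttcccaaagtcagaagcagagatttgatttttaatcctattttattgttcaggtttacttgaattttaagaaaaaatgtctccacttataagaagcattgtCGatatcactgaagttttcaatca
Padi3: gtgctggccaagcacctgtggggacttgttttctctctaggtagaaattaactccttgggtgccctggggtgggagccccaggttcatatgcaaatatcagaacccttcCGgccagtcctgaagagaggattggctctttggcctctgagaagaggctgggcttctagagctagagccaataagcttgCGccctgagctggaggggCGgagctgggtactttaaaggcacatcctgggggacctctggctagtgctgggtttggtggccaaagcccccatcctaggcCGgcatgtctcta
Padi4: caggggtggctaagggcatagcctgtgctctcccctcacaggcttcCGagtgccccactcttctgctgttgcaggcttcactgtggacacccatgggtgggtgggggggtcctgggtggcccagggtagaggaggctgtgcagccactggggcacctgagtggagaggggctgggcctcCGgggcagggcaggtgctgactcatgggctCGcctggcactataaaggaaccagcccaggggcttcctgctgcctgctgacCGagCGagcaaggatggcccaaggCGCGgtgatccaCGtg
Over 32851 promoter windows of this length the median was 7 CG. Tchh held 1, which lies 27 bases into the transcript, and 14.1% of windows held as few. Padi3 held 4 and Padi4 held 8, of which 3 each lie before the start. Among the others, Tchhl1 held 2, Padi1 held 3 and Padi2 held 22, a count that 23.1% of windows reach. Searched on both strands, CCAAT was found in Padi3 once on each strand, in Padi2 once, and in 37.4% of all windows, and TATAAA was found in Padi4 once, in none of the other 5 members, and in 13.6% of all windows. A match is only a match of letters, and methylation itself was not measured in these files.

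The first comparison asked how the genes differed between DKO and WT without treatment. Tchh was the member with the largest difference. It was 17.9 and 34.4 FPKM in the DKO libraries, from 2317 and 3910 reads, against 6.79 and 4.91 FPKM in the WT libraries, from 903 and 651 reads. Both DKO libraries stood above both WT libraries, as they did for 24.1% of all genes tested. The mean was 26.2 ± 11.6 FPKM in DKO and 5.85 ± 1.33 FPKM in WT (SD, n = 2 each), 4.47-fold higher in DKO. The log2 difference, taken here and below on log2(FPKM + 1), was 1.93 ± 0.33 (SE), with an unadjusted p of 0.00243 and an adjusted p of 0.186 over 17339 genes (limma, Benjamini-Hochberg, two-sided), so Tchh did not pass the threshold of 0.05 that 0.00577% of genes passed. An unadjusted p under 0.05 with a higher level in DKO was found for 6.72% of genes. In the authors' deposited table its log2 difference was 2.12 with an adjusted p of 0.00732, and 0.793% of genes there were called higher in DKO and 0.486% lower. Of the 6 genes, Tchh alone was called in that table. With limma's voom weighting of the recovered reads Tchh also passed, with an adjusted p of 0.0192. Within the replicate 1 libraries, both high in Xist, Tchh was 2.64-fold higher in DKO, and within the replicate 2 libraries, both low in Xist, 7.01-fold higher.

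**Figure D1:**
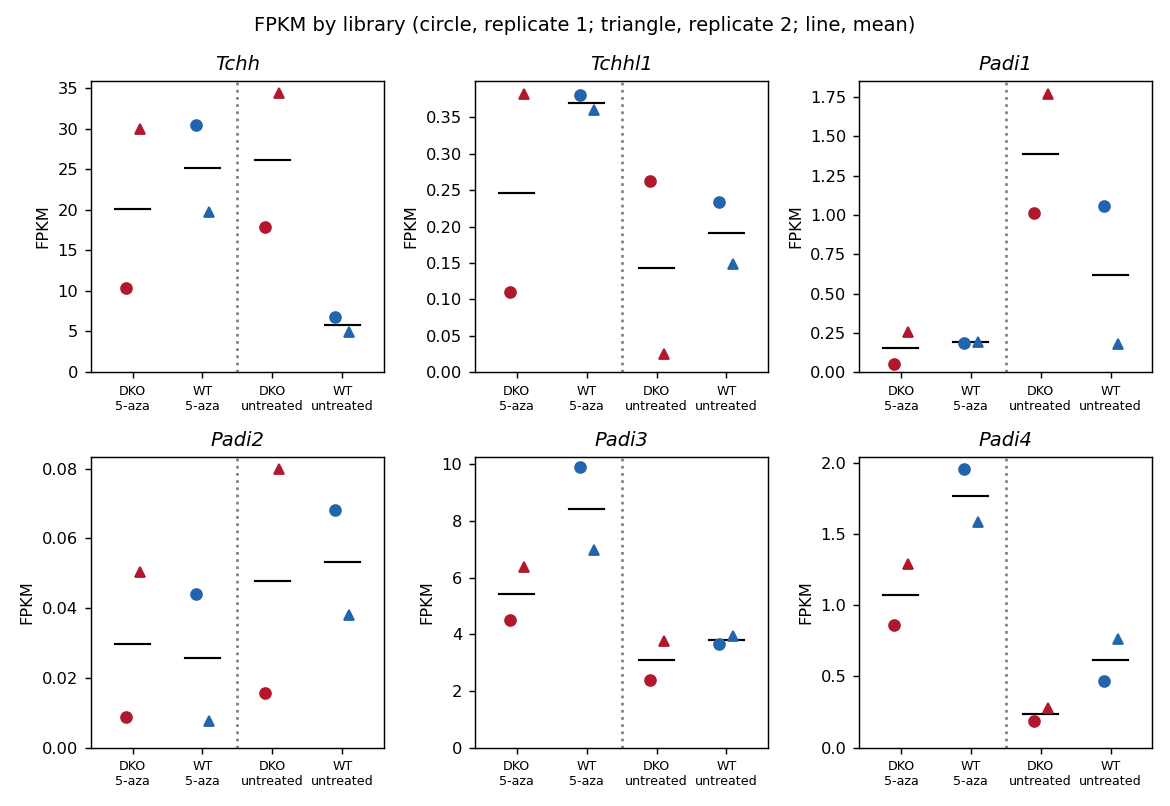
FPKM of the 6 genes in every library, 1 panel a gene with its own axis from 0; groups run from DKO and WT after 5-aza to DKO and WT untreated, points are libraries and lines are means. The untreated WT libraries of Tchh sit at 6.79 and 4.91 FPKM, under all 6 others, and Padi4 is lower in DKO than in WT on each side of the dotted line.

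After 5-aza the genotypes overlapped for Tchh, and 0.0% of the 16856 genes tested passed the adjusted threshold (limma; 0 with voom), with 1120 (6.64%) higher and 387 lower at an unadjusted p under 0.05. Both DKO libraries stood above both WT libraries for 28.0% of genes and for 0 of the 6. In the authors' deposited table, where 0.547% of genes were called higher and 0.161% lower in DKO after 5-aza, 0 of the 6 were called. There 2, Padi3 and Padi4, had an unadjusted p under 0.05 and were lower in DKO, as were 1.42% of genes. Tchh was 10.3 and 30.0 FPKM in the DKO libraries, from 2370 and 10186 reads, against 30.5 and 19.8 FPKM in the WT libraries, from 8363 and 5276 reads. The 2 DKO libraries differed 2.91-fold from each other, more than the group means did. The mean was 20.1 ± 13.9 FPKM in DKO and 25.1 ± 7.54 FPKM in WT (SD, n = 2 each), with a log2 difference of -0.45 ± 0.53 (SE; adjusted p = 0.860, limma). Without DKO replicate 1 the log2 difference was 0.28, so that library set its sign. The difference between genotypes after 5-aza minus that without it was -2.38 ± 0.72 (SE), with an unadjusted p of 0.0136 and an adjusted p of 0.785 over 15699 genes (limma); 2.59% of genes had an unadjusted p under 0.05 in that direction and 0.0191% passed the adjusted threshold. This difference of differences sets side by side values from 2 tables that were normalized separately.

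**Figure D2:**
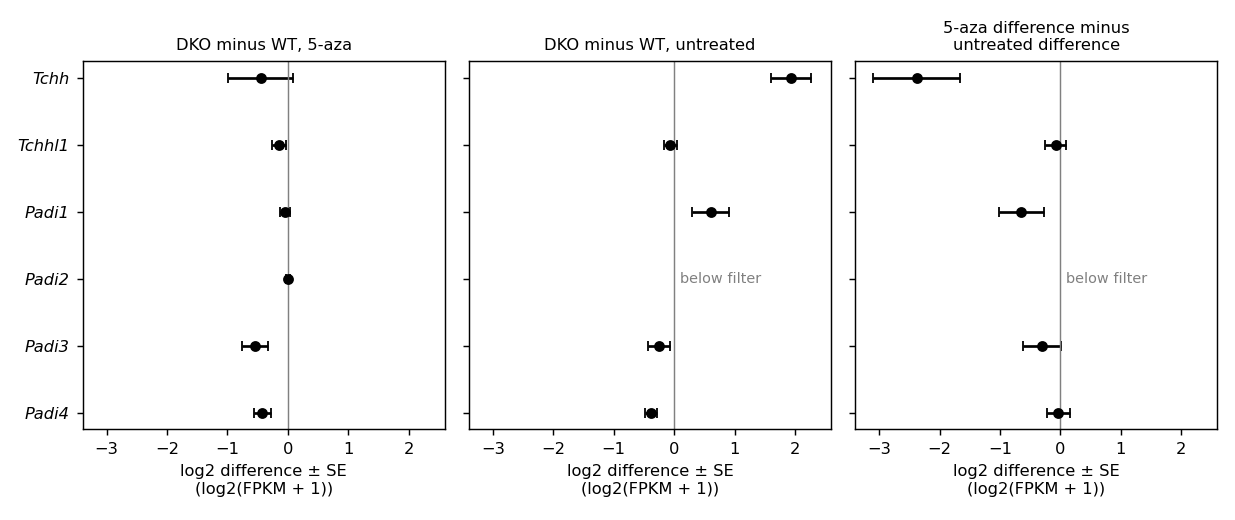
Log2 differences with SE for the 6 genes, DKO minus WT after 5-aza, DKO minus WT untreated, and the first minus the second. Tchh stands at 1.93 untreated and -0.45 after 5-aza, while Padi3 and Padi4 lie under 0 in both; Padi2 was under the filter on low values in the untreated table.

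The partner proteins of trichohyalin in the inner root sheath did not all differ as it did. Of the 8 inner root sheath keratins without treatment, 4 had higher and 4 lower levels in DKO, with a median log2 difference of 0.08 against 0.01 over all genes, and 1 passed the threshold, Krt28, which fell in DKO (2.42 ± 0.618 FPKM in DKO and 70.5 ± 0.231 FPKM in WT; adjusted p = 0.0235, limma). Krt27 and Krt73 were 3.76-fold and 2.51-fold higher in DKO (adjusted p = 0.179 each, limma), the direction of Tchh. Krt25 was 29.2 ± 9.71 FPKM in DKO and 64.0 ± 1.46 FPKM in WT (SD, n = 2 each; adjusted p = 0.241, limma), the opposite direction. After 5-aza 1 of the 8 was higher, Krt26, at 1.41 ± 0.198 FPKM in DKO and 0.417 ± 0.116 FPKM in WT (SD, n = 2 each; adjusted p = 0.340, limma), and 7 were lower, with a median of -0.19 against 0.03 over all genes and 0 past the threshold. At an unadjusted p under 0.05 (limma), 1 was higher and 1 lower after 5-aza, against 6.64% and 2.3% of all genes. Untreated, 3 were higher and 3 lower at such a p, against 6.72% and 4.73% of all genes. The authors' deposited table called more of them: untreated, 2 higher, Krt73 and Krt27 (adjusted p = 3.2e-10 and 0.0144), and 2 lower, Krt28 and Krt25 (adjusted p = 2.5e-150 and 1.1e-07). After 5-aza, the authors' deposited table called Krt26 higher and Krt28 lower (adjusted p = 2.5e-06 and 7.1e-07). Over all genes, the authors called 0.793% higher and 0.486% lower untreated, and 0.547% and 0.161% after 5-aza.

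**Figure D3:**
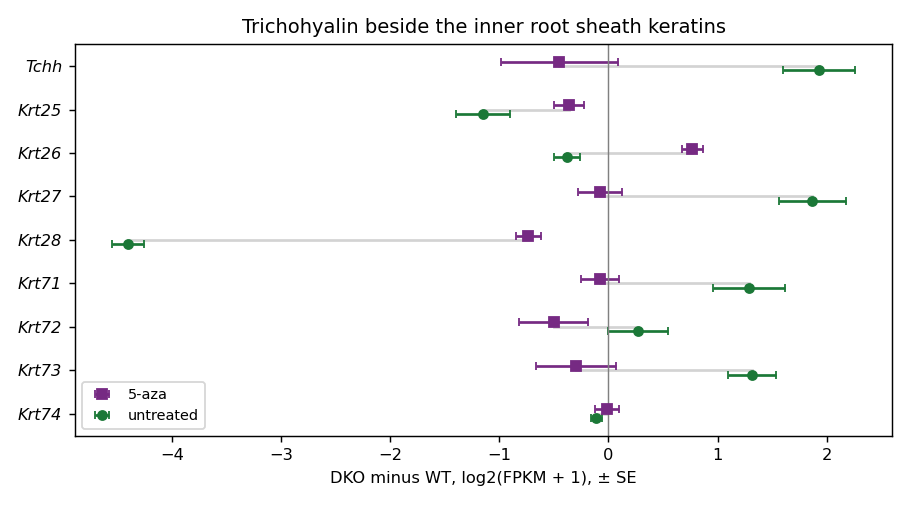
DKO minus WT log2 differences with SE for Tchh and the 8 inner root sheath keratins, squares after 5-aza and circles untreated. Krt27, Krt71, Krt72 and Krt73 share the signs of Tchh, with positive untreated values and values under 0 after 5-aza. Krt28, Krt25 and Krt74 lie under 0 in both.

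Krt73, a type II keratin of the inner root sheath, was also among the 5 genes whose pattern over the 8 libraries was most like that of Tchh, each table centred on its own mean. Its Pearson r with Tchh was 0.98 among 15699 genes, a description with no test since the libraries of a table share their processing. The others were Mir155hg, Crym, Mcat and Slc27a6, with r from 0.97 to 0.98. Krt73 was 40.1 and 81.6 FPKM in the DKO libraries and 79.5 and 62.6 FPKM in the WT libraries after 5-aza, and 65.4 and 77.8 FPKM in DKO and 33.6 and 23.4 FPKM in WT untreated. So the library lowest for Tchh after 5-aza, DKO replicate 1, was also the lowest for Krt73. The level of Tchh over that of Krt73 within a library was 0.257 and 0.367 in DKO and 0.383 and 0.316 in WT after 5-aza, and 0.274 and 0.442 in DKO and 0.202 and 0.210 in WT untreated.

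The other fused S100 genes, which lie in the same stretch of chromosome 3 and encode proteins of the cornified cell, did not all follow Tchh. Tchhl1 had 9 and 46 reads in the DKO libraries and 37 and 34 in the WT libraries after 5-aza, and 12 and 1 in DKO and 11 and 7 in WT untreated. Its groups overlapped in both tables. Its log2 difference was -0.15 ± 0.11 (SE) after 5-aza and -0.07 ± 0.11 (SE) untreated (adjusted p = 0.768 and 0.875, limma). Flg, which encodes the filaggrin precursor, another deiminase substrate, was 0.186 and 0.364 FPKM in the untreated DKO libraries and 7.13 and 0.949 FPKM in the untreated WT libraries (adjusted p = 0.461, limma). Crnn, which encodes cornulin, was 0.397 and 0.590 FPKM in untreated DKO and 0.301 and 0.118 FPKM in untreated WT, higher in both DKO libraries as Tchh was (adjusted p = 0.394, limma). Of 7 such genes, 4 were tested after 5-aza and 7 untreated, and 0 passed in either. At an unadjusted p under 0.05 Tchh and Crnn were higher untreated and 0 differed after 5-aza. Of all genes, 6.72% were higher untreated at such a p. Of the 6 nearest protein-coding neighbours of Tchh and Tchhl1, 4 were tested after 5-aza and 6 untreated, and 0 passed. At an unadjusted p under 0.05 there was 1, Them4 after 5-aza, at 2.07 and 1.92 FPKM in DKO and 0.883 and 1.15 FPKM in WT (adjusted p = 0.344, limma). After 5-aza 6.64% of all genes were higher at such a p.

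Among the deiminases, Padi3 was the most abundant in every library. Padi3 was 4.497 and 6.37 FPKM in the DKO libraries, from 1128 and 2362 reads, against 9.89 and 6.99 FPKM in the WT libraries, from 2964 and 2033 reads, after 5-aza. Both DKO libraries lay below both WT libraries, as for 11.6% of genes tested. The log2 difference was -0.55 ± 0.22 (SE; unadjusted p = 0.0581, adjusted p = 0.575, limma), and it was -0.33 without WT replicate 1 and -0.34 without DKO replicate 1. Untreated, Padi3 was 2.39 and 3.78 FPKM in the DKO libraries, from 337 and 469 reads, against 3.65 and 3.93 FPKM in the WT libraries, from 530 and 568 reads. These groups overlapped, and the log2 difference of -0.25 ± 0.18 (SE; adjusted p = 0.675, limma) was -0.0019 without DKO replicate 1, so it rested on that library. In the authors' deposited table the log2 difference was -0.70 after 5-aza and -0.33 untreated, with adjusted p of 0.142 and 0.999.

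Padi4 was lower in both DKO groups, without overlap, in the plot of FPKM by library. After 5-aza it was 0.858 and 1.29 FPKM in the DKO libraries, from 218 and 484 reads, against 1.95 and 1.58 FPKM in the WT libraries, from 593 and 467 reads. Untreated it was 0.189 and 0.278 FPKM in the DKO libraries, from 27 and 35 reads, against 0.469 and 0.764 FPKM in the WT libraries, from 69 and 112 reads. Of genes tested in both tables, 3.85% had both DKO libraries below both WT libraries on each side, and 0.484% had an unadjusted p under 0.05 in that direction in each. The mean in DKO was 0.607 of that in WT after 5-aza and 0.379 of it untreated. The log2 differences were -0.42 ± 0.14 and -0.38 ± 0.10 (SE), with unadjusted p of 0.0319 and 0.0156 and adjusted p of 0.507 and 0.311 (limma); 2.3% and 4.73% of genes reached an unadjusted p under 0.05 in that direction. Since these logarithms were taken of FPKM + 1, the differences understate the change of so low a gene, and in the authors' deposited table they were -0.78 and -1.42, with adjusted p of 0.210 and 0.149. Its unadjusted p there was 0.00255 and 0.00263, and 1.42% and 2.58% of genes in the authors' deposited table were lower in DKO at an unadjusted p under 0.05. The difference between the genotype differences was -0.04 ± 0.19 (SE; adjusted p = 0.997, limma), and its sign turned with a smaller added constant. Padi4 therefore passed the adjusted threshold in neither table, and its log2 difference was -0.27 after 5-aza without DKO replicate 1 and -0.25 untreated without WT replicate 2.

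Neutrophil markers, which bear on Padi4, were near the floor. Of 10 markers, 7 were listed after 5-aza and 8 untreated, and 0 passed the filter on low values in either table, and their summed level was 0.0818 to 0.234 FPKM in DKO and 0.0883 to 0.210 FPKM in WT after 5-aza, and 0.266 to 0.528 FPKM in DKO and 0.129 to 0.295 FPKM in WT untreated. Ltf, Mmp8 and Mpo had 0 reads in DKO after 5-aza and Ngp had 0 reads in untreated DKO. Untreated, the ranges of the sum overlapped. At so low a level the sum cannot show what part such cells had in Padi4. Macrophage and general immune markers, 7 of 7 of which were listed, summed to 2.71 to 2.93 FPKM in DKO and 2.71 to 2.85 FPKM in WT after 5-aza, and to 10.9 to 12.8 FPKM in DKO and 7.25 to 8.06 FPKM in WT untreated. Dermal papilla markers, of the mesenchyme that the matrix encloses, were lower in DKO as Padi4 and Padi3 were, with 6 of 6 negative in both tables. Their median log2 difference was -0.55 after 5-aza and -0.79 untreated, against 0.03 and 0.01 over all genes. At an unadjusted p under 0.05, 0 were lower after 5-aza and 4 untreated, against 2.3% and 4.73% of all genes (limma). None passed the adjusted threshold (limma). The authors' deposited table called 4 lower untreated, against 0.486% of all genes there. They summed to 9.51 to 20.8 FPKM in DKO and 14.7 to 33.6 FPKM in WT after 5-aza, and to 78.7 to 83.3 FPKM in DKO and 109 to 143 FPKM in WT untreated. Fibroblast markers did not share that direction, with 3 of 5 positive after 5-aza and 4 of 5 untreated, and medians of 0.01 and 0.57. Untreated, the fibroblast markers summed to 979 to 1148 FPKM in DKO and 383 to 1061 FPKM in WT. The part of any of these cells in the deiminase levels was not tested, and in bulk RNA fewer cells of a type cannot be told apart from less RNA per cell.

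**Figure D4:**
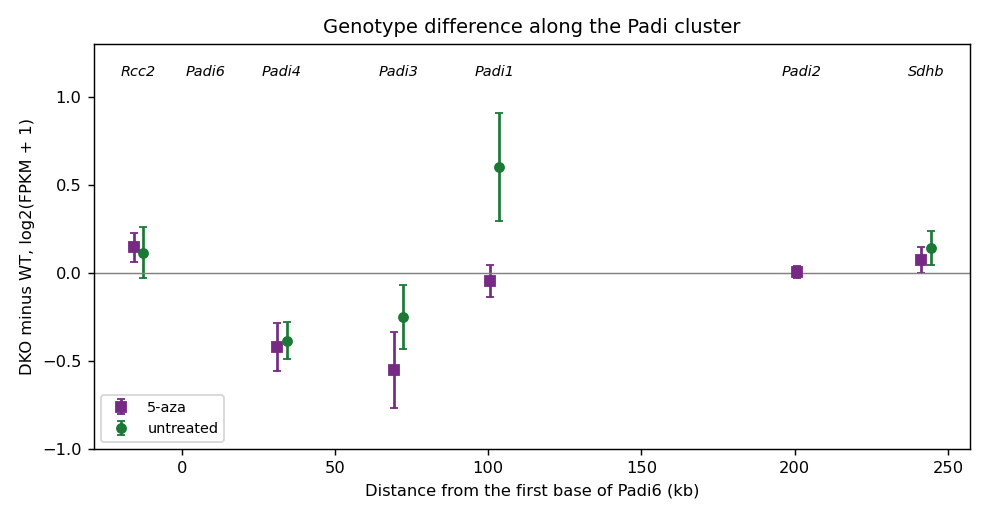
DKO minus WT log2 differences with SE along the Padi cluster, squares after 5-aza and circles untreated, at each gene's middle in kb from the first base of Padi6, with the nearest protein-coding neighbour on each side. Padi4 and Padi3 lie under 0 in both tables, Padi1 stands at 0.60 untreated and -0.05 after 5-aza, Rcc2 and Sdhb lie between 0.07 and 0.15, and Padi6 was under the filter in both.

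Padi4 and Padi3 are neighbours in the cluster and varied together over the 8 libraries (Pearson r = 0.87, each table centred on its mean). Padi1, next to Padi3, did not vary with it (r = 0.01), and its r with Tchh was 0.80. The level of Padi3 over that of Padi4 within a library was 5.24 and 4.95 in DKO and 5.07 and 4.41 in WT after 5-aza, and 12.7 and 13.6 in DKO and 7.79 and 5.14 in WT untreated. The genes of most similar pattern were Zfp462, Galnt6, Ngfr, Prkca and Faim for Padi4 (r from 0.97 to 0.98) and St8sia1, Wdr7, Rbm38, Gm44704 and 9330104G04Rik for Padi3 (r from 0.96 to 0.98). Of the 6 nearest protein-coding neighbours of the cluster, 5 were tested in each table and 0 passed, adjusted or at an unadjusted p under 0.05 (limma). Rcc2 was 41.7 and 40.1 FPKM in DKO and 37.4 and 36.4 FPKM in WT after 5-aza, and 57.3 and 59.4 FPKM in DKO and 50.7 and 57.2 FPKM in WT untreated (adjusted p = 0.688 and 0.824, limma). Sdhb was 9.04 and 8.26 FPKM in DKO and 8.04 and 8.28 FPKM in WT after 5-aza, and 16.1 and 17.1 FPKM in DKO and 14.5 and 15.4 FPKM in WT untreated (adjusted p = 0.829 and 0.654, limma). Mfap2, the farthest of the 6 on the Padi2 side, was lower on average in DKO in both tables, at 1.79 and 3.81 FPKM in DKO and 6.12 and 2.84 FPKM in WT after 5-aza, and 14.9 and 12.8 FPKM in DKO and 15.7 and 19.3 FPKM in WT untreated (adjusted p = 0.775 and 0.499, limma). The other tested neighbours, Arhgef10l, Rcc2, Sdhb and Atp13a2, had positive log2 differences in both. That of Atp13a2 was 0.15 after 5-aza and 0.28 untreated (adjusted p = 0.750 and 0.481, limma).

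Padi1 was low and uneven. It was 0.0542 and 0.257 FPKM in the DKO libraries and 0.187 and 0.193 FPKM in the WT libraries after 5-aza, from 8 to 56 reads. Untreated it was 1.01 and 1.77 FPKM in the DKO libraries, from 84 and 129 reads, against 1.05 and 0.176 FPKM in the WT libraries, from 90 and 15 reads. The groups overlapped in both tables, with log2 differences of -0.05 ± 0.09 and 0.60 ± 0.31 (SE; adjusted p = 0.918 and 0.537, limma). The untreated difference was 0.20 without WT replicate 2 and 1.00 without WT replicate 1. Cdsn, which encodes corneodesmosin of differentiated epidermis, was among the 5 genes most like it in pattern (r = 0.98), with Pttg1, Trex2, D730001G18Rik and Gm10687. The 5 markers of differentiated interfollicular epidermis summed to 5.60 to 11.3 FPKM in DKO and 2.91 to 4.09 FPKM in WT after 5-aza, and to 158 to 279 FPKM in DKO and 108 to 293 FPKM in WT untreated. Padi1 was 0.0542 to 0.257 FPKM over all libraries after 5-aza and 0.176 to 1.77 FPKM untreated, and the part of such cells in its level was not tested.

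Padi2 was near the floor throughout. It had 2 and 17 reads in the DKO libraries and 12 and 2 in the WT libraries after 5-aza, and 2 and 9 reads in DKO and 9 and 5 in WT untreated, where it was under the filter and not tested. After 5-aza its log2 difference was 0.01 ± 0.03 (SE; adjusted p = 0.978, limma). Padi6, the deiminase of the oocyte and the fifth gene of the cluster, had 3 and 1 reads in DKO and 1 and 1 in WT after 5-aza, and 0 and 0 in DKO and 1 and 2 in WT untreated.

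Ordered by mean FPKM, the level per length ran Tchh, Padi3, Padi4, Tchhl1, Padi1, Padi2 in WT and in DKO after 5-aza. The order was Tchh, Padi3, Padi1, Padi4, Tchhl1, Padi2 in untreated DKO, and the same in untreated WT but for Padi4 and Padi1, which differed there by less than their spread. Neighbours in this order overlapped in DKO for Tchhl1 and Padi1 after 5-aza, and for Padi4 and Tchhl1 and for Tchhl1 and Padi2 untreated, and in WT for Padi4 and Padi1 and for Padi1 and Tchhl1 untreated. The deposited length of Padi3 is 6351 bases, against 3447 exon bases in GENCODE M21, and with the GENCODE length untreated WT gave 6.98 ± 0.353 FPKM for Padi3 and 5.85 ± 1.33 FPKM for Tchh (SD, n = 2 each), which turns the order of the first pair in that group. The level of Tchh over that of Padi3 within a library, on the deposited lengths, was 2.29 and 4.71 in DKO and 3.08 and 2.83 in WT after 5-aza, and 7.50 and 9.10 in DKO and 1.86 and 1.25 in WT untreated. Substrate and enzyme thus stood farther apart in both untreated DKO libraries than in any other library, a ratio that the scaling of a library does not touch.

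The groups with and without 5-aza stand in tables that were made separately, so levels are set side by side with no test. Padi3 was 4.497 to 9.89 FPKM over the 4 libraries after 5-aza and 2.39 to 3.93 FPKM over the 4 untreated libraries. Padi4 was 0.858 to 1.95 FPKM after 5-aza and 0.189 to 0.764 FPKM untreated. Scaled to reads in listed genes, since the library totals of the tables are not counted alike, Padi3 was 10.6 to 25.2 after 5-aza and 3.97 to 6.55 untreated, and Padi4 was 2.02 to 4.98 after 5-aza and 0.314 to 1.23 untreated, in FPKM with those reads as the total. The ranges did not overlap on either scale. The share of all genes whose ranges separate between the tables was not counted, so whether this is particular to Padi3 and Padi4 cannot be said. Markers of other cells separated the same libraries: fibroblast markers summed to 54.9 to 112 FPKM after 5-aza and 383 to 1148 FPKM untreated, dermal papilla markers to 9.51 to 33.6 FPKM after 5-aza and 78.7 to 143 FPKM untreated, and muscle markers to 0.0867 to 0.192 FPKM after 5-aza and 1.86 to 2.81 FPKM untreated. Their part in the levels of Padi3 and Padi4 was not tested. Tchh was 19.8 to 30.5 FPKM in WT after 5-aza and 4.91 to 6.79 FPKM in untreated WT, and 10.3 to 30.0 FPKM in DKO after 5-aza and 17.9 to 34.4 FPKM in untreated DKO, so the tables were apart in WT and overlapped in DKO. No share over all genes was counted for this either. The sample protocols name the SMARTER messenger RNA kit and the design text a stranded Zymo total RNA kit, and whether both tables came from the same kit is not stated.

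Genes that act with trichohyalin were counted from lists chosen for their role. Tgm3, whose enzyme crosslinks trichohyalin, was 5.06 and 6.86 FPKM in DKO and 4.42 and 2.96 FPKM in WT after 5-aza, and 5.00 and 8.31 FPKM in DKO and 2.91 and 3.60 FPKM in WT untreated. Both DKO libraries stood above both WT libraries in each table, as for 11.6% of genes tested in both, but 0 of 5 transglutaminase genes tested after 5-aza and 0 of 6 untreated passed, with 1 higher in each at an unadjusted p under 0.05 (Tgm3 adjusted p = 0.549 and 0.327, limma). At such a p 6.64% of all genes were higher after 5-aza and 6.72% untreated. The authors' deposited table gave Tgm3 adjusted p of 0.459 and 0.00349. Of the 9 other deiminase substrates, 7 were tested after 5-aza and 9 untreated, 0 passed, and 5 and 6 had positive differences, with medians of 0.65 and 0.25 against 0.03 and 0.01 over all genes. At an unadjusted p under 0.05, 3 and 2 were higher, against 6.64% and 6.72% of all genes. The authors' deposited table called 3 of the 9 higher in each comparison, among them Krt14 (adjusted p = 2.4e-05 after 5-aza and 2.9e-21 untreated) and, untreated, S100a3 (adjusted p = 2.4e-07). Over all genes, the authors called 0.547% higher after 5-aza and 0.793% untreated. S100a3, a hair cuticle protein that PADI3 citrullinates in humans, was 1.82 and 3.59 FPKM in DKO and 0.775 and 0.653 FPKM in WT untreated (adjusted p = 0.254, limma). Krt14 was 71.1 and 95.2 FPKM in DKO and 43.0 and 29.5 FPKM in WT after 5-aza, and 175 and 209 FPKM in DKO and 71.9 and 84.7 FPKM in WT untreated (adjusted p = 0.388 and 0.189, limma).

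Of 10 regulators of the inner root sheath and medulla, 9 had positive differences in each table, with medians of 0.18 after 5-aza and 0.12 untreated against 0.03 and 0.01 over all genes, and 0 passed. At an unadjusted p under 0.05 (limma), 4 were higher after 5-aza and 3 untreated, against 6.64% and 6.72% of all genes. At such a p 0 were lower, against 2.3% and 4.73% of all genes. The authors' deposited table called Hoxc13 higher after 5-aza (adjusted p = 2.2e-07), and Hoxc13, Foxn1 and Ovol1 higher untreated (adjusted p = 7.6e-06, 4.3e-05 and 0.00378). Of all genes there, 0.547% were called higher after 5-aza and 0.793% untreated. Foxn1, a transcription factor of hair differentiation, was 10.5 and 8.68 FPKM in DKO and 5.47 and 7.52 FPKM in WT after 5-aza, and 7.08 and 8.10 FPKM in DKO and 3.72 and 3.31 FPKM in WT untreated (adjusted p = 0.523 and 0.117, limma). Hoxc13, a homeobox factor that acts on hair keratin genes, was 22.6 ± 0.774 FPKM in DKO and 12.3 ± 0.963 FPKM in WT after 5-aza, and 27.6 ± 4.49 FPKM in DKO and 12.6 ± 4.46 FPKM in WT untreated (SD, n = 2 each; adjusted p = 0.286 and 0.268, limma). Krt75, used here as a medulla marker and named after its values were seen, was 73.7 and 62.2 FPKM in DKO and 43.4 and 49.9 FPKM in WT after 5-aza. Untreated it was 12.7 and 18.2 FPKM in DKO and 12.9 and 15.6 FPKM in WT (adjusted p = 0.437 and 0.903, limma). Both DKO libraries stood above both WT libraries after 5-aza, as for 28.0% of genes, and its untreated groups overlapped. The part of medulla cells in the level of Tchh was not tested. Of the 8 cornified envelope partners tested in each table, 7 had positive differences after 5-aza and 5 untreated, with medians of 0.38 and 0.37 against 0.03 and 0.01 over all genes, and 0 passed. At an unadjusted p under 0.05, 5 were higher after 5-aza, and 2 were higher and 1 lower untreated, against 6.64%, 6.72% and 4.73% of all genes. Dsg4, a desmosomal cadherin of the follicle, was 8.29 ± 1.17 FPKM in DKO and 3.21 ± 0.102 FPKM in WT after 5-aza, and 13.9 ± 2.29 FPKM in DKO and 3.52 ± 0.292 FPKM in WT untreated (SD, n = 2 each; adjusted p = 0.286 and 0.0831, limma), and the authors' deposited table called it higher in both (adjusted p = 3.2e-10 and 2.8e-23).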

How the data were processed

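RNA was measured in 8 libraries of 4 groups with 2 replicates each. The submitters' processing notes name the tools Trim Galore, STAR, HTSeq and DESeq2, give no version of them, and list GRCm38 and mm10 as builds. Untreated and 5-aza libraries stand in a deposited table each. The library columns are the authors' values in FPKM, as read from the values, since no header gives the unit: multiplied by gene length, they step in whole reads (within 0.001 reads) for every gene of a library, which gave the reads behind each value. The authors' fold changes are on the log2 scale and run WT over DKO, judged against the library columns; they are printed here with the sign turned, as DKO over WT. The deposited p-values and the statistic, a score, come from the authors' DESeq2 test; the mean of reads scaled by size factors is a signal, and the length column gives gene length in bases, per the file headers. Both tables also hold summary lines that name no gene, without FPKM, and those for reads not aligned or of low quality stand only in the 5-aza table, so library totals are not alike.

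Each table was fitted as log2(FPKM + 1) by limma 3.58.1 (R 4.3.3), letting the prior variance follow mean level. A gene entered with 10 or more reads, scaled to a library of median size, in 2 or more libraries, and 15 or more reads over the table. P-values were two-sided and Benjamini-Hochberg adjusted, with a threshold of 0.05. The fit was run on simulated data in which the libraries of a group varied little, so that run does not show what could be detected here. The recovered reads were fitted with limma's voom as an alternative, and no negative binomial model was run here. The same-numbered libraries of WT and DKO deviated from their group means with a correlation of 0.03 untreated and -0.59 after 5-aza, so numbers were not taken as pairs. Alternatives were other constants, filters, scalings and variance models, the replicate block, all libraries in 1 fit and leaving out each library. The genes and lists were chosen with earlier results of these data known. Named with values from a list are at most the 4 genes with the smallest p, and those past the threshold. Of like pattern, the 5 genes with the highest correlation are named. Promoters are RefSeq's, on GRCm38.p6; all 6 genes matched by symbol. Proteins were not used here. Melanocyte and endothelial markers had 0 calls in either table by limma or by the authors, with 2 of each higher untreated and 0 after 5-aza at an unadjusted p under 0.05 (limma). Of all genes, 6.72% were higher untreated and 6.64% after 5-aza at such a p. Untreated, melanocyte markers summed to 32.1 to 34.9 FPKM in DKO and 25.8 to 26.1 FPKM in WT. Melanocyte markers were uneven within groups after 5-aza, with sums of 25.5 to 129 FPKM in DKO and 18.9 to 89.3 FPKM in WT. Each of them was higher in DKO replicate 2 and in WT replicate 1 than in the other library of the group, as Tchh was. Their part in the level of Tchh was not tested.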

Additional observations from a re-analysis of the deposited data

How the results depend on the processing

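Of 248 values of the 16 results on single genes under other settings, 231 kept direction and side of the threshold, 16 turned direction and 1, Tchh untreated, passed only with voom (log2 difference 2.11, adjusted p = 0.0192); the cause was not tested. Leaving out 1 library, which assumes that the lone library varies like the other groups, the log2 difference between DKO and WT after 5-aza ranged from -1.18 to 0.28 for Tchh, from -0.30 to 0.013 for Tchhl1, from -0.17 to 0.079 for Padi1, from -0.024 to 0.034 for Padi2, from -0.77 to -0.33 for Padi3 and from -0.57 to -0.27 for Padi4, and untreated from 1.48 to 2.38 for Tchh, from 0.20 to 1.00 for Padi1, from -0.50 to -0.0019 for Padi3, from -0.52 to -0.25 for Padi4 and from -0.22 to 0.084 for Tchhl1. The difference of differences ranged from -3.11 to -1.65 for Tchh, from -0.24 to 0.079 for Tchhl1, from -1.05 to -0.25 for Padi1, from -0.55 to -0.053 for Padi3 and from -0.19 to 0.11 for Padi4. It was 0.25 for Tchhl1 with voom, and for Padi4 0.68 with voom, 0.40 with a constant of 0.1 and 0.059 with a constant of 0.5. Both other scalings kept the direction of every tested gene among the 6.

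Over all genes, limma called 1 untreated. The count was 8 with a constant of 0.1, 7 with 0.5, 147 with voom, 111 with all 8 libraries in 1 fit, and 0 when no genes were filtered, when 0.1 FPKM was the filter, without a variance trend, and without any 1 library (range 0 to 0); unadjusted counts there were 395 to 1623 in either direction. After 5-aza it was 0, and 1 with all libraries in 1 fit. For the difference of differences it was 3, and 1 with either constant, the filter of 0.1 FPKM, either scaling, no variance trend or voom, and 0 to 2 without 1 library.

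With the replicate number as a block, 13 genes were called untreated, 0 after 5-aza and 0 for the difference of differences (287 higher and 313 lower at an unadjusted p under 0.05), and no call on the 6 genes changed. A crossed pairing after 5-aza, chosen after seeing the data, called 91 genes after 5-aza and 0 for the difference of differences. With 2 libraries a group, and 1 to 56 reads for Tchhl1 and Padi2 and for Padi1 after 5-aza, depth limits what could be detected for these genes.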
